A study of Mus musculus with 32 samples.

Results

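Ribosomal protein genes encode the proteins that join ribosomal RNA to form the small (Rps) and large (Rpl) subunits of the cytosolic ribosome. Because every dividing cell needs ribosomes, these genes served here as a constitutive control: the question was how far the rank of their peaks moved between treatments. The members were the autosomal protein-coding GRCm38 gene models whose symbol is Rpl or Rps followed by a digit, or Rplp0, Rplp1, Rplp2 or Rpsa, without the Rps6k kinases and the models marked as pseudogenes. The rule uses names and positions only. It found 85 of 20661 autosomal protein-coding gene models, of which 73 encode the usual cytosolic ribosomal proteins (30 of the small and 43 of the large subunit). The other 12 are paralogs, retrogenes and Rps19bp1, a binding protein of Rps19. A peak counted as a member when it lay within 1 kb of either end of one of these gene models.

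Chromatin accessibility was measured by ATAC-seq, in which a transposase inserts sequencing adapters into open DNA, in haematopoietic stem and progenitor cells sorted from mouse bone marrow as Lin- cKit+ Sca1+ and CD45.1+/2+. These cells descended from healthy wild-type CD45.1+/2+ marrow (800000 cells) transplanted into lethally irradiated CD45.2 C57BL/6J recipients together with 200000 CD45.1 marrow cells of a companion donor. In AF9-experienced mice the companion cells were iMLL-AF9, homozygous for hMLL-AF9 and rtTA, so that doxycycline switched on the MLL-AF9 leukaemia fusion. In naive mice they were hMLL-AF9-null and homozygous for rtTA only. Doxycycline, begun 6 to 8 weeks after transplantation, ran for 5 weeks in the leukaemia model and was withdrawn for 4 weeks to give remission; the labels do not say separately whether naive mice received it. All recipients were therefore irradiated and carried rtTA marrow, and the sorted cells themselves carried no fusion. Mice then received PBS or LPS, a bacterial lipopolysaccharide sensed by Toll-like receptor 4, and were killed 24 hours later. Biological replicates numbered 4 after PBS and 3 after LPS in naive mice, and 4 and 5 in AF9-experienced mice, each with 2 technical libraries and 1 peak list.

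The 16 lists held 19448 to 88816 peaks, and 3 of them stood apart as short: naive LPS 3 (39464), AF9-experienced PBS 1 (25685) and naive PBS 1 (19448). To set lists of unequal length side by side, each was reduced to its 19100 strongest autosomal peaks, and a peak's value was its percentile rank by -log10 p in that list, with 100 for the strongest and 0 for no peak among the 19100. The value is therefore a position within a list and not an amount of open chromatin. Of 12 stem and progenitor marker genes, 7 had a gene-end peak in every full list (Kit, Cd34, Flt3, Meis1, Mecom, Runx1 and Erg), and Ly6a, the gene of the sorting marker Sca1, had none in any list. None of 22 markers of mature T, NK, B and myeloid cells, mast cells and stroma had one in every full list, while 3 of 4 erythroid and 2 of 2 megakaryocyte markers did.

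Ribosomal protein promoters are known for compact, sharply defined start sites, and many of their mRNAs begin with a 5′ terminal oligopyrimidine (TOP) tract, a run of C and T through which growth signals (mTORC1) control their translation. RefSeq promoter entries (GRCm38.p6) matched 65 members, 53 of them cytosolic ribosomal proteins. A run of at least 5 pyrimidines covered the annotated start in 17 of these 53 promoters (32.1%), against 8.68% of 16456 promoters in the table and 5.8% of 69 mitochondrial ribosomal protein promoters. The count needs a C or T at the annotated base itself. A run that begins a few bases further on is left out, as at Rps26, whose annotated start is G. The share is therefore not the share of genes with a TOP tract. The start base was C in 37.7% of the 53 and in 13.8% of all. The following stretches run 5′ to 3′ from 60 bases before the start to 20 bases from it onward, with the pyrimidine run at the start in capitals. They are shown because Rps9 and Rps18 carry the regions described below for the LPS comparisons, Rps27 and Rpl15 are Diamond-Blackfan anaemia genes, and Rpl35 and Rpl27a have long runs.
Rps9, chr7:3703981-3704060, plus strand: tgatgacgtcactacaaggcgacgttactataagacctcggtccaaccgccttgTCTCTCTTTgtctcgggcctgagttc
Rps18, chr17:33955646-33955725, minus strand: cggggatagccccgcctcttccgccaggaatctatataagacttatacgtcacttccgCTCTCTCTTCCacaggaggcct
Rps27, chr3:90213629-90213708, minus strand: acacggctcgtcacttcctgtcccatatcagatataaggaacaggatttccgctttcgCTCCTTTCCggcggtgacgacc
Rpl15, chr14:18270967-18271046, minus strand: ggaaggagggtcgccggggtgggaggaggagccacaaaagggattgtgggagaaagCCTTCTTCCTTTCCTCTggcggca
Rpl35, chr2:39005112-39005191, minus strand: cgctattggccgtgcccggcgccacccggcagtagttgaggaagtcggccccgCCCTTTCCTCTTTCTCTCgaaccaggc
Rpl27a, chr7:109519135-109519214, plus strand: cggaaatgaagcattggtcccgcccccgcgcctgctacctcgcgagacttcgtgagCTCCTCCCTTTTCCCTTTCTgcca

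Letters of known promoter motifs were searched on both strands of the promoter entries (250 bases before the start and 50 from it onward). The ETS core CCGGAAG, recognised by factors such as GABPA, occurred in 41.5% of the 53 cytosolic ribosomal protein promoters and in 12.3% of all promoters. The YY1 letters AAGATGGC occurred in 9.43% against 3.21%. Mitochondrial ribosomal protein promoters had 34.8% for the ETS core and 17.4% for the YY1 letters. In the cytosolic set against all promoters, the GC box GGGCGG was found in 58.5% against 47.3%. Letters less frequent than in all promoters were TATAAA (7.55% against 13.5%), CCAAT (30.2% against 39.1%) and the AP-1 letters TGANTCA (1.89% against 7.12%). The E-box CACGTG, bound by Myc and related factors, was found in 9.43% against 7.97%. The ETS letters are in capitals in the next set, which holds the promoter of a gene at the top of the ranking (Rpl37), 1 ranked near it (Rps21), 2 lower in the order (Rpl26, Rpl38) and the lowest-ranked gene with peaks (Rpl6).
Rpl37, chr15:5116553-5116632, plus strand: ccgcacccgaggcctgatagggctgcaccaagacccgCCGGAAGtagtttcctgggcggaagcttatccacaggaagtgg
Rps21, chr2:180257319-180257398, plus strand: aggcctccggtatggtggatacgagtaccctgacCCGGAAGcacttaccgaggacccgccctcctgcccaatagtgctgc
Rpl38, chr11:114668520-114668599, plus strand: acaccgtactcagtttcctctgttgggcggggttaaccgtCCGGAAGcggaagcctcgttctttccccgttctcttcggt
Rpl26, chr11:68901506-68901585, plus strand: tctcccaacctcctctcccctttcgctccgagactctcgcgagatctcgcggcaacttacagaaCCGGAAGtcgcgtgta
Rpl6, chr5:121204441-121204520, plus strand: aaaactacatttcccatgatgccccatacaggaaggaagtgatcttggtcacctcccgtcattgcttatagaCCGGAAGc

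Ranks of genes with and without the letters overlapped widely. The 22 cytosolic genes with the ETS letters had a median mean rank of 76.2, against 79.3 for the 31 without, and the 17 with a pyrimidine run at the start had 77.8 against 80.2 for the 36 without. The 31 genes with a GC box had 81.8 against 71.9 for the 22 without. These ranks use the 1 kb window at the gene ends, by which Rps2, Rpl19 and Rps25, all with the ETS letters, enter at 0. Rps2 and Rpl19 have a peak at a start inside the gene model, which the window leaves out. These are descriptions over genes that share all 16 lists, with no test. Peak summits lay close to the starts: in 51 cytosolic genes with a peak at the start in all 16 lists, the median summit was 41 bp upstream (-41 bp), 38 genes had it within 100 bp and 41 had it upstream. The exceptions beyond 250 bp were Rps26 (-330 bp) and Rpl4 (-517 bp, with single lists from -549 to 16 bp). Within a gene, the summit moved over the 16 lists by a median of 72 bp.

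**Figure D1:**
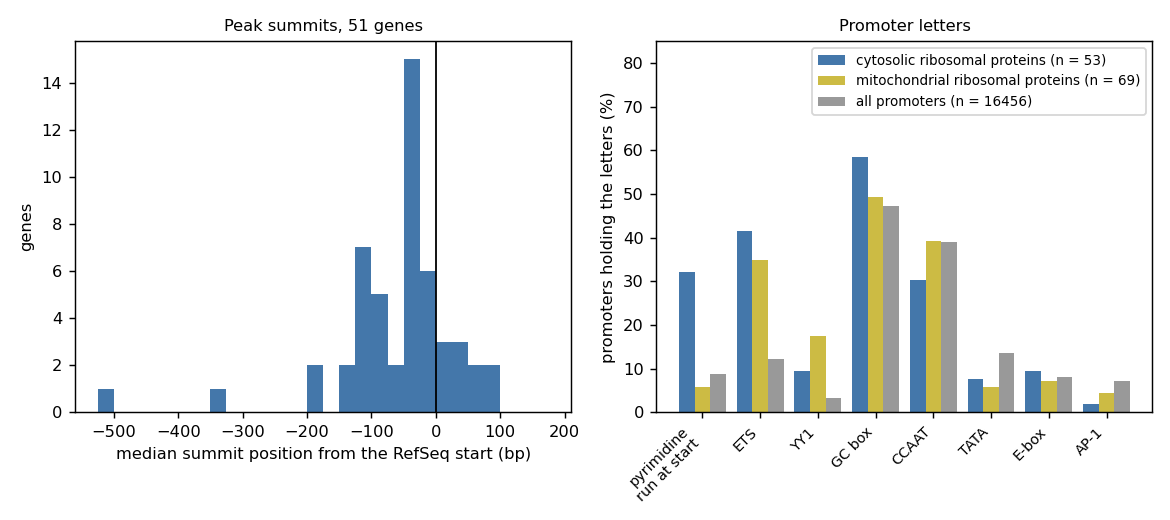
Left, number of cytosolic ribosomal protein genes by the median position of the peak summit over 16 lists, in bp from the RefSeq start (vertical line at 0); right, percent of promoters holding each set of letters in 3 sets of promoters. The median summit sits at -41 bp and 38 of 51 lie within 100 bp, and the ETS letters and pyrimidine runs stand above the level of all promoters.

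Ribosomal protein gene ends were present in nearly every list and ranked moderately high, without being the strongest peaks. Of the 73 cytosolic genes, 67 had a gene-end peak in all 16 equal-length lists (91.8%), against 40.1% of all autosomal protein-coding genes. Over all 85 members the number was 71. The other pathway lists had 36 of 38 translation factors, 30 of 34 ribosome biogenesis genes, 18 of 21 genes of growth control and 61 of 78 mitochondrial ribosomal proteins. None of 281 ribosomal protein pseudogene models had a gene-end peak in every equal-length list, and 238 had none in any full list. The median rank of the cytosolic genes with a peak was 75.5 to 81.8 over the lists. It was above that of all protein-coding genes with a gene-end peak (72.1 to 74.0) in each of the 16. Both medians use the strongest peak of each gene and include genes with a peak in only some of the lists. Among genes with a gene-end peak in all 16 lists, the median of gene means was 80.1 for the cytosolic genes and 78.1 for all protein-coding genes. Between 8 and 18 of the 73 genes stood in the top 10% of a list.

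By rank of -log10 p, the group means of the level lay close together. After PBS the median rank averaged 79.4 ± 1.35 in naive mice (SD, n = 4) and 79.3 ± 0.634 in AF9-experienced mice (n = 4). After LPS it averaged 78.5 ± 2.17 (n = 3) and 79.0 ± 2.39 (n = 5). The differences between these means were smaller than the spread over lists within the LPS groups. In the authors' fold enrichment, which is relative to the background of the same library, the median of these peaks relative to that of all gene-end peaks in the same list was 1.03 to 1.10 in the 4 naive PBS lists and 0.957 to 0.992 in the 3 naive LPS lists, which did not overlap. It was 1.01 to 1.08 and 0.983 to 1.08 in AF9-experienced mice, which did. Ranked by fold enrichment, the median difference of the 82 member regions after LPS was 2.43 points in naive mice (0.47 over all regions) and 5.97 in AF9-experienced mice (0.94 over all), where by -log10 p both medians are slightly below 0. No median over gene-end regions is at hand for the ranking by fold, so a shift particular to these genes is not shown.

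**Figure D2:**
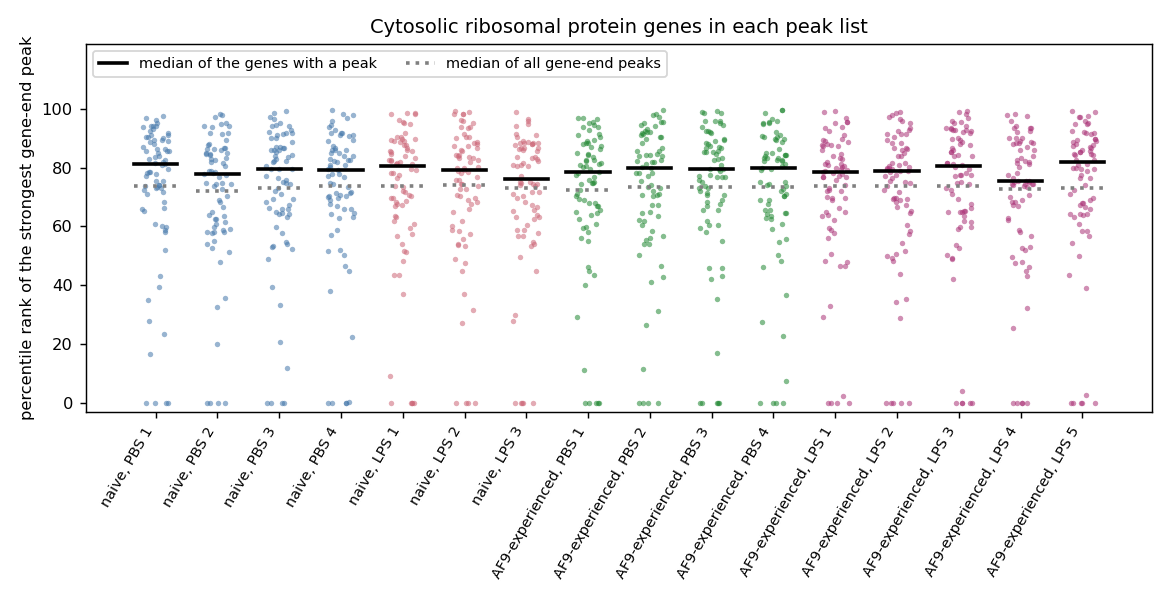
Percentile rank of the strongest gene-end peak of each of 73 cytosolic ribosomal protein genes (points) in the 16 peak lists, coloured by group; 0 means no peak among the 19100 strongest. The median of the genes with a peak (black bar, 75.5 to 81.8) lies above the dotted bar (72.1 to 74.0) in every list. The dotted bar, labelled as all gene-end peaks, is the median over all protein-coding genes with such a peak, by the strongest of each gene.

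Genes of the family differed far more from each other than a gene did between lists. At the top, Rps29, a zinc-binding protein of the small subunit and a Diamond-Blackfan anaemia gene, had ranks of 96.1 to 99.1 in the 16 lists (mean 98.0, SD 0.863). Rpl37 (97.4, SD 3.16) and Rpl27 (97.1, SD 2.31) of the large subunit and Rps21 (94.3, SD 1.91) of the small subunit were also near the top. The means of Rps29, Rpl37 and Rpl27 differ by less than the SDs of the latter pair. At Rpl37 the 3 short lists gave the 3 lowest values (91.1, 94.4 and 89.1), and the other 13 lay between 97.3 and 99.7.

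Among genes with known roles in blood, Rps19, the gene most often mutated in Diamond-Blackfan anaemia, had a mean rank of 91.6 (SD 3.48). Rpl5 and Rpl11, which bind the 5S ribosomal RNA and, when ribosome assembly fails, the p53 regulator Mdm2, had 82.8 (SD 4.02) and 80.1 (SD 4.78). Rps26 had 82.8 (SD 7.09), Rps24 67.1 (SD 4.58) and Rpl35a 63.1 (SD 6.38). Of the 23 Diamond-Blackfan anaemia genes, 22 had a gene-end peak in every list, with a median mean rank of 77.5, close to the 78.1 of all 73. Rps6, the substrate of S6 kinase, had 84.0 (SD 4.61). Rpsa, a small-subunit protein also known as the laminin receptor precursor, had 87.2 (SD 4.28). The P-stalk recruits translation factors to the ribosome: its base Rplp0 had 90.6 (SD 6.20), with 73.4 in the short list naive PBS 1 and 84.0 to 98.2 in the others, while Rplp1 had 80.5 (SD 2.99) and Rplp2 77.8 (SD 5.82).

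At the low end, Rpl6 of the large subunit had a peak in 11 of the 16 equal-length lists and a mean rank of 12.7 (SD 14.3), though all 16 full lists held one. Rpl8 (38.6, SD 8.70), Rpl32 (44.6, SD 11.1) and Rpl7 (47.6, SD 7.55) had a peak in all 16. Rpl22, a large-subunit protein known as a haploinsufficient suppressor of T cell leukaemia, had 24.6 at the ends of its gene model, but its strongest peak lay about at the limit of the 1 kb window. The merged region holding that peak ranked 90.9 (SD 4.04) over all 16 lists. The same held for Rps27l, a p53-responsive paralog of Rps27, which was at 0 in 3 lists by its window and at 88.3 (SD 3.80) as a region. Among genes with a mean of at least 50, Rps27l, Rpl38 and Rpl13 varied most. Rpl38, known for its part in translating Hox mRNAs, had a mean of 56.6 (SD 12.1, with 80.4 as the highest), and Rpl13 had 67.4 (SD 11.0), where the short list AF9-experienced PBS 1 was at 29.3 and the others at 58.1 to 74.3.

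Of the 85 members, 11 had no gene-end peak in any equal-length list. Rps2, Rpl17 and Rpl19 each had a peak inside the gene model, over 1 kb from its ends, in all 16 lists, with mean ranks of 83.0, 54.3 and 49.8. For Rps2 and Rpl19 the annotated RefSeq start also lies inside the gene model, and the peak was at that start (median summit -114 bp and 65 bp), so both are among the 51 genes with a start peak. Rps25 and Rps19bp1 lie next to stretches of 102 kb and 34.4 kb in which no list holds a peak and which contain 8 and 2 other coding gene models, and these stretches were not analysed here. The remaining 6 are Rpl10l and Rpl39l, known from testis, and the copies Rpl32l, Rpl37rt, Rps23rg1 and Rps27rt. Of the 12 paralogs, retrogenes and Rps19bp1, 4 had a gene-end peak in every list: Rpl22l1 (92.4, SD 2.90), Rpl36al (91.2, SD 2.43), Rpl3l (72.4, SD 8.41) and Rpl7l1 (71.9, SD 7.16). The peak of Rpl3l, a paralog known from striated muscle, lay at its 3′ end, which is also a gene end of Msrb1, and that of Rpl36al also lay at a gene end of Mgat2.

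**Figure D3:**
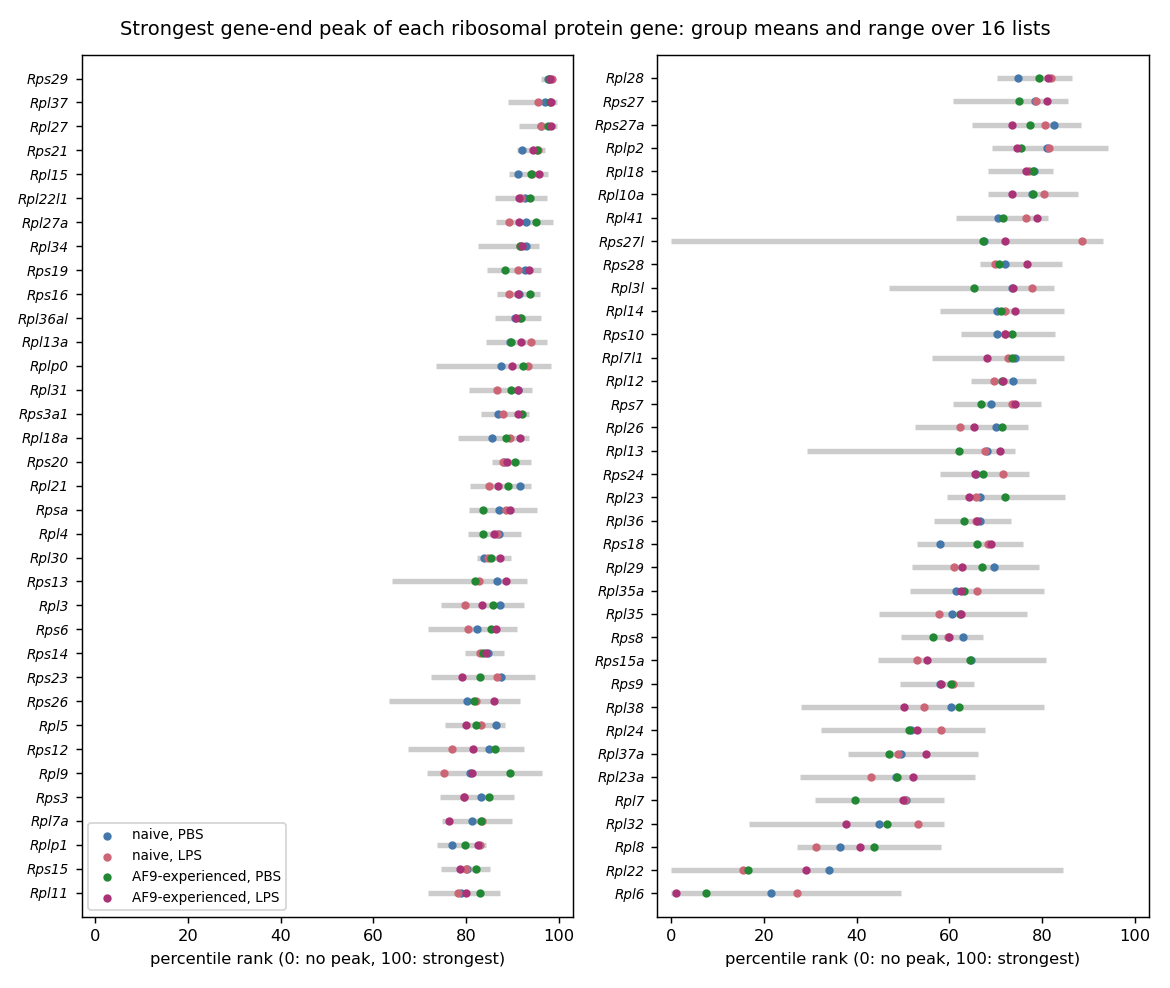
Percentile rank of the strongest gene-end peak for 71 of the 74 members with such a peak in any equal-length list, highest at top left and continuing in the right panel; coloured points are the 4 group means and grey bars the range over 16 lists. Rps29 spans 96.1 to 99.1, Rpl6 spans 0 to 49.6, and group means of a gene lie close together compared with the distance between genes; the wide bars of Rps27l and Rpl22 come from peaks at the limit of the 1 kb window.

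For the comparisons between groups, overlapping peaks were merged over lists into 31846 regions, and limma tested the 23554 found in 3 lists or more in 1 fit of all 16 lists. The members made up 84 of these regions, of which 82 were tested and 78 had a peak in all 16 lists. RefSeq starts gave the strand for part of them: 50 regions lay at a 5′ end only, 8 at a 3′ end only, 5 at both ends of a short gene, and for 19 the end was not told. A gene end of another coding gene lay within 1 kb of 23 of the 82, so a region need not belong to the ribosomal protein gene.

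After LPS, 1 of the 82 member regions rose in naive mice and 1 in AF9-experienced mice, and none fell. Over all tested regions, 2% were called higher and 1.22% lower in naive mice, and 3.44% and 1.74% in AF9-experienced mice, at a Benjamini-Hochberg adjusted p under 0.05. Among the 9999 gene-end regions these shares were 0.64% and 0.4% in naive mice, and 0.96% and 0.8% in AF9-experienced mice, so 1 of 82 is near what gene ends gave. The number called over all regions depended on single lists. In naive mice 471 higher and 287 lower became 234 to 560 and 109 to 572 when naive PBS 1, 2 or 3 or naive LPS 1, 2 or 3 was left out, with the lowest counts without naive LPS 2. In AF9-experienced mice 810 and 411 became 435 to 1005 and 161 to 640 when naive PBS 1, AF9-experienced PBS 2, 3 or 4 or AF9-experienced LPS 2, 3 or 4 was left out. At an unadjusted p under 0.05, 8 of the 82 (9.76%) differed in each LPS comparison, against 9.47% and 11.5% of gene-end regions. The median difference of the member regions was -0.23 percentile points in naive mice (0 over all regions) and -0.36 in AF9-experienced mice (-0.18 over all). Differences of at most 10 points either way made up 93.9% and 92.7% of the member regions, against 82.5% and 82.9% of gene-end regions. These shares are not matched for rank: 9 of the 82 members and 3489 other gene-end regions had a mean rank of 50 or less, where replicates vary more.

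The region that rose was the same in both comparisons, which share no list: it lies at the 3′ end of Rps9, a small-subunit protein of the mRNA entry side (chromosome 7, 3706703 to 3707460, GRCm38). Its ranks were 0, 0, 16.8 and 5.48 in naive PBS lists 1 to 4 and 59.96, 51.4 and 35.5 in naive LPS lists 1 to 3. In AF9-experienced mice they were 13.8, 27.9, 16.6 and 31.9 after PBS and 50.8, 40.7, 65.2, 56.9 and 49.5 after LPS. All 8 LPS lists were above all 8 PBS lists. The difference was 43.4 points in naive mice (SE 8.58, limma adjusted p = 0.0062) and 30.1 points in AF9-experienced mice (SE 7.53, adjusted p = 0.0212). The LPS changes themselves differed by -13.3 points (SE 11.4, adjusted p = 1.0 over the table), within their error.

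The region sits downstream of the gene body, with its summit 152 to 303 bp past the end of the Rps9 model in the 15 full lists that hold it. Its nearest other coding models are Tsen34, a subunit of the tRNA splicing endonuclease, 5668 bp before it and Pirb, an inhibitory immunoglobulin-like receptor of myeloid and B cells, 5045 bp after it. The 5′ region of Rps9, whose start is printed above, stayed at 49.3 to 65.4 in all 16 lists. In naive mice its mean was 57.9 ± 2.73 after PBS (SD, n = 4) and 60.8 ± 2.36 after LPS (n = 3; limma adjusted p = 0.862). In AF9-experienced mice it was 60.5 ± 4.88 (n = 4) and 54.2 ± 5.28 (n = 5; limma adjusted p = 0.482).

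The rise is one of rank. The authors' fold enrichment at the Rps9 3′ peak was 5.80 to 11.1 in the 6 PBS lists that are not short and 7.47 to 10.8 in the 7 such LPS lists, which overlap, while the median fold of the equal-length lists was 13.9 to 19.4 and 9.16 to 13.6. Outside the short lists, this median fold separates PBS from LPS, so as a covariate it cannot be told apart from treatment there. With each list's median fold enrichment as a covariate, the differences were 46.7 points in naive (adjusted p = 0.00251) and 34.3 points in AF9-experienced mice (adjusted p = 0.00818). Ranked by fold enrichment in place of -log10 p, they were 15.3 (adjusted p = 0.424) and 21.3 (adjusted p = 0.124). The call was also lost in both comparisons with 9550 peaks per list, with full lists and on a logit scale. In naive mice the limma adjusted p was 0.0505 in a fit of the 2 groups alone. In AF9-experienced mice the adjusted p was 0.0815 when PBS list 3 was left out, 0.0617 without LPS list 3 and 0.0506 without LPS list 4. It was 0.0548 with the replicate block and 0.103 with 50% reciprocal overlap. Without the 3 short lists, in lists of 59600 peaks, the region was called in both comparisons, with differences of 17.97 (adjusted p = 0.00535) and 8.70 (adjusted p = 0.0424).

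The next region in order of p for a rise after LPS in AF9-experienced mice also lay at a 3′ end and did not pass the test in either comparison. At Rps18, a small-subunit protein of the head (chromosome 17, 33950889 to 33951918), ranks were 25.9, 46.5, 42.6 and 52.5 in naive PBS and 71.9, 54.4 and 63.8 in naive LPS. They were 29.6, 53.5, 51.0 and 48.7 in AF9-experienced PBS and 69.0, 71.8, 61.1, 56.8 and 68.0 in AF9-experienced LPS. The groups did not overlap within either arm, and the differences were 21.5 (SE 7.20, adjusted p = 0.115) and 19.6 (SE 6.32, adjusted p = 0.0753). This region is also a gene end of B3galt4, a glycosyltransferase gene, and the 2 lowest values are short lists. It passed with median fold as a covariate (adjusted p = 0.00685 and 0.00292), which outside the short lists cannot be told apart from treatment. Ranked by fold enrichment, its differences were 8.86 (adjusted p = 0.456) and 5.29 (adjusted p = 0.549). Without the 3 short lists they were 5.11 (adjusted p = 0.112) and 4.57 (adjusted p = 0.0603).

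In the other direction, the smallest p in naive mice belonged to Rpl21 (-6.74, SE 2.39, adjusted p = 0.141), and Rpl3 differed by -7.45 (adjusted p = 0.307). In AF9-experienced mice it belonged to Rpl9 (-8.21, SE 3.03, adjusted p = 0.126), the 3′ region of Rps19 and Rpl7a (-6.90, adjusted p = 0.174). The Rps19 3′ region (chromosome 7, 24890121 to 24890926) had ranks of 28.6 to 38.3 in the 4 AF9-experienced PBS lists and of 32.9, 30.5, 0.717, 0 and 0 in the LPS lists, a split within the LPS group, with a difference of -20.2 (SE 8.09, adjusted p = 0.163). The promoter region of Rps19 changed by 5.30 (SE 2.11, adjusted p = 0.159) in the same comparison. The 50 regions at a 5′ end only ranged from -11.9 to 9.78 points in naive mice and from -12.0 to 8.80 in AF9-experienced mice, and none was called; 1 and 4 of them had an unadjusted p under 0.05. Without the 3 short lists, in naive mice (n = 3 and 2), the promoter regions of Rps26 (3.72 points, limma adjusted p = 0.0404) and Rps18 (4.94 points, adjusted p = 0.0473) were called higher and that of Rpl38 lower (-6.57 points, adjusted p = 0.0346).

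**Figure D4:**
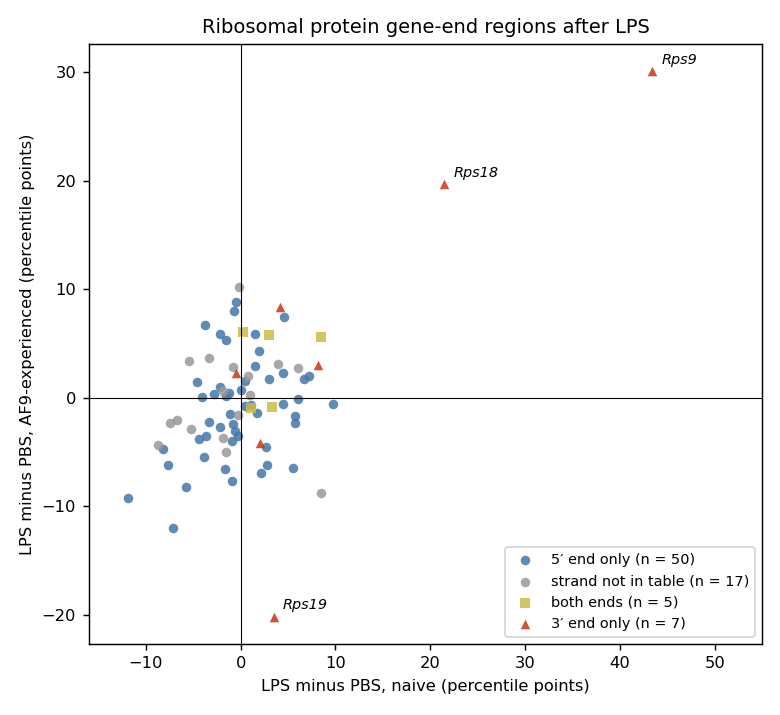
LPS minus PBS difference in percentile points for 79 member regions, in naive mice (horizontal) and AF9-experienced mice (vertical), by the gene end at which a region lies. Regions at 5′ ends stay within about 12 points of 0, while the 3′ regions of Rps9 and Rps18 lie to the upper right. The 3′ region of Rps19 lies at -20.2 in AF9-experienced mice. Regions at 3′ ends have lower mean ranks (median 54.2 over 7, against 80.2 over 50 at 5′ ends), where replicates vary more.

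AF9 experience moved no member region past the test. After PBS, 0 of 82 were called, as were 0% of all tested regions, and 2 had an unadjusted p under 0.05 (2.44%, against 3.20% of all regions and 2.88% of gene ends). After LPS, 0 of 82 were called against 0.0127% of all, and 4 had an unadjusted p under 0.05 (4.88%, against 5.38% and 3.87%). The difference between the LPS changes of both arms was called at 0 of 82 member regions and at 0% of all, with 2 at an unadjusted p under 0.05 (2.44%, against 2.94% and 2.27%). Median differences of the member regions were 0.59 points after PBS, 0.37 after LPS and -0.83 for the difference between the LPS changes, against 0, 0 and -0.18 over all regions. The comparisons after PBS and after LPS use different lists, and each shares its lists with an LPS comparison.

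The smallest p among the members belonged to the promoter region of Rpl6 after LPS, with a difference of -26.0 (SE 8.10, adjusted p = 0.715). Its ranks were 0, 31.6 and 49.6 in naive LPS and 2.31, 0, 0, 0 and 2.83 in AF9-experienced LPS, and the groups overlapped at 0. After PBS they were 23.3, 19.9, 20.7 and 22.3 in naive mice and 11.0, 11.5, 0 and 7.57 in AF9-experienced mice, which did not overlap, with a difference of -14.0 (SE 7.85, adjusted p = 1.0). Rpl6 lies near the limit of the 19100 peaks, where a small change in a list sets a rank to 0. Among the other members with small p-values, Rpl9 was at a higher value in AF9-experienced mice by 8.59 after PBS (SE 3.20, adjusted p = 1.0) and by 6.08 after LPS (SE 3.30, adjusted p = 0.944), and Rpl7a differed by -7.25 after LPS (SE 3.08, adjusted p = 0.901). After PBS, Rps3a1 differed by 5.05, the promoter region of Rps19 by -4.40 and Rpl7 by -10.9 (adjusted p = 1.0 each). After LPS, Rps28 differed by 6.93, Rps6 by 6.07 and Rps23 by -7.61 (adjusted p = 0.962, 0.944 and 0.916); without naive LPS 3, a short list, the difference was 1.81 at Rps6 and -14.8 at Rpl6, and without naive LPS 1 it was -39.6 at Rpl6. The Rps9 3′ region differed by 17.0 after PBS (SE 7.94, adjusted p = 1.0) and by 3.68 after LPS (SE 8.20, adjusted p = 1.0).

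**Figure D5:**
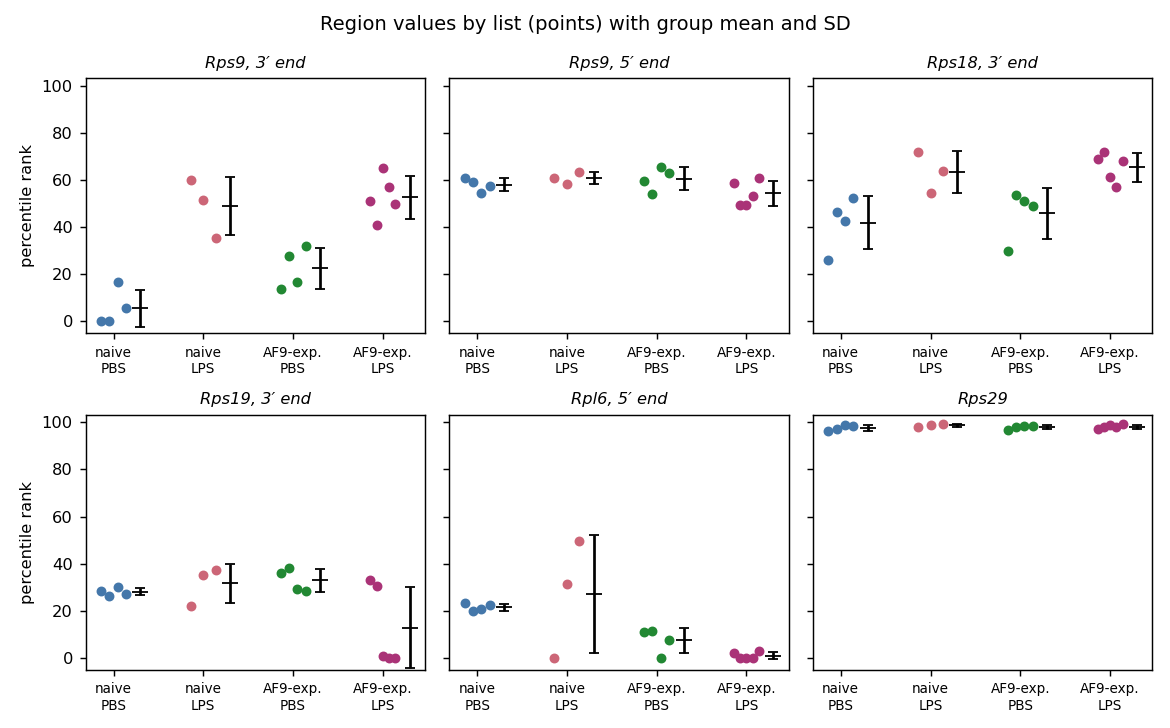
Percentile rank of 6 member regions in each list (points) with the group mean and SD (bar with caps) in the 4 groups. At the Rps9 3′ end all LPS lists exceed all PBS lists, its 5′ end stays between 49.3 and 65.4, and Rps29 stays above 96 in every list.

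Few regions of the related gene lists changed. Over gene-end regions, 0.64% and 0.96% were called higher in naive and AF9-experienced mice, and 9.47% and 11.5% had an unadjusted p under 0.05. None of 82 mitochondrial ribosomal protein regions was called after LPS in naive mice (4 at an unadjusted p under 0.05), and 1 rose in AF9-experienced mice, at Mrpl36, by 23.3 points (SE 6.30, limma adjusted p = 0.0335). None of 42 translation factor regions or 23 growth control regions was called in any comparison; after LPS, 4 and 5 of the former and 2 and 4 of the latter had an unadjusted p under 0.05. Of 35 ribosome biogenesis regions, 1 rose in each LPS comparison. In naive mice it was Sbds, the Shwachman-Diamond syndrome gene that releases Eif6 from the large subunit, by 14.7 points (SE 3.94, limma adjusted p = 0.0406), from 63.7 ± 3.12 (SD, n = 4) to 78.4 ± 2.52 (n = 3). In AF9-experienced mice it was Rrs1, a nucleolar assembly factor, by 6.27 points (SE 1.61, adjusted p = 0.0244), from 89.7 ± 1.68 (n = 4) to 96.0 ± 1.10 (n = 5). In the arm without a call, the means of these genes moved in the same direction. Sbds went from 63.5 to 75.1 in AF9-experienced mice. In naive mice Rrs1 went from 93.5 to 96.7 and Mrpl36 from 42.4 to 54.7.

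Members varied between replicates about as much as other gene ends of the same rank. For regions with a mean rank of 80 to 90, the median SD within groups was 3.99 over 23 member regions and 4.41 over 1595 other gene-end regions. For a mean rank of 50 to 70 it was 6.92 over 19 and 8.14 over 1957, and for a mean rank above 90 it was 3.05 over 15 and 2.59 over 1542. The median size of the LPS difference in naive mice was 2.98 points over the members, 3.84 over gene-end regions and 5.68 over all regions, whose mean ranks differ.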

How the data were processed

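ATAC-seq peak lists of 16 biological replicates in 4 groups were analysed, with group and replicate number taken from the labels. Per the submitters' processing notes, FastQC, Trim Galore, BWA, Picard and MACS3 were used (no versions given) with genome build GRCm38; read filters are not given in the sources used here. The labels' protocols name both Omni-ATAC and a single-cell Chromium chemistry. Each deposited list gives the authors' fold enrichment (a ratio to the library's own background), -log10 p and -log10 q per peak. These are each peak's own values, not scaled between libraries, and the depth is unknown.

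Lists were reduced to the 19100 strongest autosomal peaks and overlapping peaks merged. Percentile ranks of regions found in 3 lists or more were tested with limma 3.58.1 in R 4.3.3 (1 mean per group, trend and robust options, Benjamini-Hochberg over all 23554 regions). The test was run on simulated ranks with independent noise and no effects of whole lists. That check does not cover the dependence of the calls on single lists. The samples are labelled biological replicates, and p-values reflect only their spread. GRCm38.p6 RefSeq gene models gave symbols and ends, and the RefSeq promoter table strand and sequence.

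Named genes follow a rule: member regions called in any comparison, the 3 smallest p per direction in each comparison of 2 groups, the 5 highest and 5 lowest genes by mean rank, the 3 with the largest SD among means of at least 50, paralogs, members without a peak, Rplp0, Rplp1, Rplp2 and Rpsa. Diamond-Blackfan anaemia genes and others named for a known role were added after values were seen. Single values of 3 members are not reported here; counts of members and regions include them, except in the plots by gene and by region. Members and lists were chosen with earlier results of these data known. Alternatives were ranking by fold, 9550 peaks per list, full lists, leaving out the 3 short lists, 50% reciprocal overlap, a replicate block, a logit scale, fits of 2 groups, library weights, a median fold covariate, a window of 500 bp, all regions tested, and leaving out each list.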

Additional observations from a re-analysis of the deposited data

Results flagged for a closer look

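Groups of 4 or 5 lists were examined for a single list far from the others at the named regions, and 12 of 96 were set apart. Chance would set apart about 1 in 20 independent groups. These groups share lists, and some regions were named for their spread, so the count cannot be set against that rate. In 7 of the 12 the list was 1 of the 2 short PBS lists and was the lowest. The short list AF9-experienced PBS 1 was at 29.3 at Rpl13 (others 72.9 to 73.2), at 47.1 at Rpl3l (others 70.8 to 72.0), at 94.4 at Rpl37 (others 99.2 to 99.7) and at 80.5 at Rps27l (others 88.9 to 90.2). The short list naive PBS 1 was at 91.1 at Rpl37 (others 98.2 to 99.5), at 82.5 at Rps27l (others 89.6 to 90.3) and at 87.1 at Rpl22l1 (others 94.1 to 95.1). The same 2 lists were the highest of their group at Rps6 (AF9-experienced PBS 1, 90.9, others 83.1 to 84.3) and at Rps19 (naive PBS 1, 95.3, others 91.7 to 92.2). The part of list length in these values was not tested.

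In other lists, AF9-experienced LPS 4 was at 86.0 at Rps3a1 (others 91.6 to 93.4) and AF9-experienced LPS 1 at 81.2 at Rps6 (others 86.6 to 88.8). AF9-experienced PBS 4 was at 90.2 at Rpl36al (others 92.1 to 92.5).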

How the results depend on the processing

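Member regions called after LPS (1 higher in naive and 1 in AF9-experienced mice, 0 lower in both) depended on the setting. Both rises were lost (0 and 0) when ranked by fold enrichment, with 9550 peaks per list, with full lists and on a logit scale. In naive mice the rise was lost (0) in a fit of the 2 groups alone, and in AF9-experienced mice (0) with 50% reciprocal overlap. With the replicate block, 1 region was called higher in naive and 0 in AF9-experienced mice. Deviations from group means correlated at -0.22 to 0.23 over 21 same-numbered pairs, with 3 above 0.1. Over 74 pairs of different numbers they correlated at -0.30 to 0.24, with 19 above 0.1. The labels give only the number, and whether equal numbers share a batch was not tested. Without the 3 short lists there were 5 higher and 1 lower in naive mice and 2 and 2 in AF9-experienced mice, of 95 member regions, where 3.91% and 2.82%, and 4.93% and 5.53%, of all regions were called. Library weights gave 5 and 2, and 3 and 3, where 7.35% and 6.33%, and 8.88% and 8.52%, of all regions were called. The median fold covariate, which follows treatment outside the short lists, gave 2 and 0, and 3 and 1, against 2.93% and 1.88%, and 4.4% and 2.59%. Leaving out each list gave 1 to 2 higher in naive and 0 to 2 in AF9-experienced mice; the call in the latter was lost without AF9-experienced PBS 3, LPS 3 or LPS 4, and a further region was called in each without naive PBS 1. No setting called a member region for AF9 experience or for the difference between LPS changes.

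Ranked by fold, the median differences were 2.43 (LPS, naive), 5.97 (LPS, AF9-experienced), -2.86 (AF9 experience after PBS) and 3.60 (difference between LPS changes). Over all regions they were 0.47, 0.94, 0 and 0.38. With full lists the members had 1.26 for LPS in AF9-experienced mice and 1.89 for AF9 experience after PBS, against -0.92 and 4.77 over all regions. The median rank of the 85 genes (74.8 and 77.2 in naive mice after PBS and LPS, 73.6 and 74.7 in AF9-experienced mice) was 61.3, 64.1, 57.2 and 65.9 by fold and 49.7, 54.4, 50.3 and 52.5 with 9550 peaks. It was 89.0, 91.8, 91.1 and 92.7 with full lists and 92.0, 92.9, 91.5 and 91.9 without the short lists, since the same peak stands at a higher percentile in a longer list. Among single regions in the AF9 comparison after PBS, Rps9 3′ went to 0 by fold and with 9550 peaks, Rpl7 to 1.16 with 9550 peaks, 2.58 with full lists and 2.13 with 50% overlap, and Rpl6 to 2.14 with full lists; Rpl21 after LPS in naive mice went to 3.51 by fold. The cause was not tested for changes other than that of list length. Peak lists hold no read counts, so a region outside a list is not shown to be closed, and ranks near 0 are the least precise.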

Other observations

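Without the 3 short lists, in lists of 59600 peaks, some member regions below the limit of the equal-length lists came into view, beside calls at regions already in them, such as Rpl7 in AF9-experienced mice (5.00 points, SE 1.41, limma adjusted p = 0.0308). In AF9-experienced mice a region at the far end of Rpl26 (chromosome 11, 68904826 to 68905016) had a mean rank of 34.9 after PBS (n = 3) and of 0 after LPS (n = 5). The difference was -34.9 (SE 5.72, limma adjusted p = 0.00125). The region was at 0 in naive PBS (n = 3) and 7.21 in naive LPS (n = 2). Testing needed a peak in 3 lists or more, and the region had peaks only in AF9-experienced PBS and naive LPS lists. Its p-value is therefore no support for a fall, and 0 means only that a list held no peak there. In naive mice, a region at Rpl8 (chromosome 15, 76905743 to 76906022) went from 0 to 42.3 (SE 12.4, adjusted p = 0.0483), where n was 3 and 2.

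Introns of ribosomal protein genes are known hosts of small nucleolar RNAs, which guide chemical modification of ribosomal RNA. In the gene models used, 57 snoRNA models lay inside 28 of the 85 members.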
